A study of Mus musculus with 21 samples.

Results

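Farnesyl diphosphate synthase (Fdps) and 7 other enzymes of cholesterol synthesis were described in sorted mouse bone marrow cells, over 21 arrays. The genes are Fdps, Hmgcs1, Mvk, Mvd, Idi1, Fdft1, Sqle and Cyp51. They were chosen by the log2 levels of Fdps, which were lower after Dot1l deletion in one cell type and higher in the other, and the question was whether its neighbours in the pathway follow. They are 8 of the 18194 genes measured and hold 21 of the 45101 probe sets. Each gene stood by its probe set of highest mean log2 intensity over all arrays, and the other probe sets are given beside it. The values of Fdps chose the set, so they are given as a description, without a test, and support nothing.

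The cells were granulocyte-macrophage progenitors (GMP) and LSK cells, which lack lineage markers, carry Sca-1 and Kit and include the blood stem cells. GMP-Dot (4 arrays) and LSK-Dot (6 arrays) came from Dot1l fl/fl x Mx-Cre mice injected with pIpC, which induces Cre and deletes both floxed alleles of Dot1l, a histone H3 lysine methyltransferase gene. GMP-Control (5 arrays) and LSK-Control (6 arrays) came from Dot1l wt/wt x Mx-Cre mice, also injected per the design text, so Cre and pIpC are shared by all groups. All mice are labelled C57/BL6, no age is given for them, and the interferon-responsive Mx promoter is active in many cell types, not only in the sorted ones. Nothing in the labels ties an array to an animal of its own. The titles give 9 K numbers to both an LSK and a GMP array, and whether a K number names an animal is not stated. The main fit treated all arrays as independent. The spread behind the p-values is that between arrays, which may be technical, and their small number limits precision. Dot1l itself, by its brighter probe set, had a log2 fold change of -0.52 ± 0.24 (SE) in GMP with a limma adjusted p of 0.340, and -0.10 ± 0.20 in LSK with an adjusted p of 0.985. Whether its probes lie in the deleted part was not examined, so they do not check the labels.

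Cholesterol is built from acetyl-CoA through mevalonate. Hmgcs1 makes HMG-CoA, mevalonate kinase (Mvk) and mevalonate diphosphate decarboxylase (Mvd) turn mevalonate into isopentenyl diphosphate, Idi1 isomerises it, and Fdps joins these units into farnesyl diphosphate. Farnesyl diphosphate is a branch point: squalene synthase (Fdft1) commits it to sterols, followed by squalene epoxidase (Sqle) and the demethylase Cyp51, while other enzymes use it for protein prenylation, dolichol and ubiquinone. Genes of the pathway are known as targets of the transcription factor SREBP-2 (Srebf2), which is cleaved and enters the nucleus when membrane sterol is low.

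Array quality and cell identity varied between arrays. LSK-Dot K1272 stood apart, correlating with the rest of LSK-Dot at a mean Spearman rho of 0.649, followed by GMP-Control K1603 at 0.810 and K1601 at 0.850, against 0.871 to 0.957 for the other 18 arrays. Upper quartiles of log2 intensity were 6.27 to 6.77 in GMP-Dot, 6.19 to 6.57 in GMP-Control, 6.18 to 6.78 in LSK-Dot and 6.60 to 6.76 in LSK-Control. The 4 measured LSK markers (Kit, Flt3, Mecom, Hlf) had a mean log2 level of 5.38 to 6.30 in GMP-Dot, 4.80 to 5.42 in GMP-Control, 4.79 to 9.85 in LSK-Dot and 9.32 to 9.72 in LSK-Control. The 6 GMP markers (Fcgr3, Mpo, Elane, Ctsg, Prtn3, Ms4a3) had 11.83 to 12.37 in GMP-Dot, 12.01 to 12.67 in GMP-Control, 8.11 to 10.91 in LSK-Dot and 8.40 to 9.66 in LSK-Control. On 5 of 6 LSK-Dot arrays LSK markers were thus below, and GMP markers above, every LSK-Control array. Of these 10 markers 0 were called between LSK-Dot and LSK-Control, where 0 of all 18194 genes were, so the count does not bear on the shift. Late neutrophil markers (8 measured) had 6.79 to 7.74 in GMP-Dot, 7.996 to 8.49 in GMP-Control, 5.89 to 7.87 in LSK-Dot and 7.71 to 12.07 in LSK-Control. B cell markers (5 measured) had 4.48 to 5.01 in GMP-Dot and 5.21 to 5.55 in GMP-Control, and 7 markers of dividing cells had 7.32 to 9.45 in LSK-Dot and 7.26 to 8.39 in LSK-Control. The part of these shifts in the results below was not tested. All groups were sorted populations, and a change in the mix of cells and a change in RNA per cell cannot be told apart in them.

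Promoter sequence was available from RefSeq (GRCm38.p6) for 5 of the 8 genes, Hmgcs1, Mvk, Mvd, Idi1 and Cyp51, and not used here for Fdps, Fdft1 and Sqle. Of these, 4 are printed because they hold both kinds of neighbour: Mvk had the same signs as Fdps in both cell types, and Idi1, Cyp51 and Hmgcs1 did not. These kinds are not firm. Without LSK-Dot K1272 the LSK value of Mvk turned to -0.01 and that of Idi1 to 0.01. Mvd also had the signs of Fdps and kept them without that array. Each line gives 250 bases before to 50 bases after the gene's start, 5′ to 3′ on the gene's strand. Capitals mark matches on either strand to TCACNCCAC (a sterol response element), CCAAT (NF-Y) or GGGCGG (Sp1), none of which overlap.
Hmgcs1, chr13:119690101-119690400, strand +: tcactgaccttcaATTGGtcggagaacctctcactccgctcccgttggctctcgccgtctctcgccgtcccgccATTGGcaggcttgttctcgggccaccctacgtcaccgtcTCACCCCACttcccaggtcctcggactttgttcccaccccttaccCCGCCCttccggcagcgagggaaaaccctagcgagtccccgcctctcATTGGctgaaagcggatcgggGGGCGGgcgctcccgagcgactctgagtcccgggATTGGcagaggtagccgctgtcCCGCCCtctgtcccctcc
Mvk, chr5:114444019-114444318, strand +: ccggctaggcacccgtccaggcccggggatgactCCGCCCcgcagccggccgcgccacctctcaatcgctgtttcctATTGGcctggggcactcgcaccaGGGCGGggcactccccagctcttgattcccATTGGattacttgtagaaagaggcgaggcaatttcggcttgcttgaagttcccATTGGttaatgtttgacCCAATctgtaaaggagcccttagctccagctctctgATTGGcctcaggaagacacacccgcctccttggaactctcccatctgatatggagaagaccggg
Idi1, chr13:8885356-8885655, strand +: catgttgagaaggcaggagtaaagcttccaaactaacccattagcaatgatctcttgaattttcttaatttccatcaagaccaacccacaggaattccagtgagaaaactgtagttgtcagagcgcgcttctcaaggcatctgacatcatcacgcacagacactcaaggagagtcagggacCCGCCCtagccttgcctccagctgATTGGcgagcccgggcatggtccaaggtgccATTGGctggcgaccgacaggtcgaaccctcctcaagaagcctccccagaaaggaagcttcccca
Cyp51, chr5:4104648-4104947, strand -: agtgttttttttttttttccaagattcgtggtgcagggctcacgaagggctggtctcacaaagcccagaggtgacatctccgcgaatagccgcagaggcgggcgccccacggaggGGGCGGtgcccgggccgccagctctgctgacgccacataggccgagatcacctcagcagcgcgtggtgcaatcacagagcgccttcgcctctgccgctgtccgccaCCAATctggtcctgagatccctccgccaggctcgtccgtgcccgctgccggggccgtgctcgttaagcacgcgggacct
Hmgcs1 held 1 sterol response element match, 4 CCAAT and 3 GGGCGG matches, and Mvk held 0, 5 and 2 of these. Idi1 held 0, 2 and 1, Cyp51 held 0, 1 and 1, and Mvd, not printed, held 0, 2 and 1. Of all 32851 promoters of this length, 1.24% held the sterol response element letters, 37.4% CCAAT and 35.7% GGGCGG. A match is a description of letters in this window and no more.

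Fdps lay lowest in LSK-Control and highest in GMP-Control, and after deletion the levels of both cell types met between these. Its log2 intensities were 6.65, 6.53, 5.86 and 4.94 in GMP-Dot and 7.65, 8.05, 7.29, 8.76 and 8.86 in GMP-Control, so every GMP-Dot array was below every GMP-Control array. In LSK-Dot the lowest, median and highest were 5.65, 6.37 and 7.71, against 4.31, 4.61 and 5.197 in LSK-Control, with every LSK-Dot array above every control. These differences were -2.12 ± 0.42 (SE) on the log2 scale in GMP, 0.229 times the control level, and 1.79 ± 0.36 in LSK, 3.46 times the control level. GMP-Control was 3.48 ± 0.38 above LSK-Control. GMP-Dot and LSK-Dot overlapped, with a difference of -0.44 ± 0.40 and a 95% interval from -1.28 to 0.41. The GMP effect minus the LSK effect was -3.92 ± 0.55.

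The 5 LSK-Dot arrays with low LSK and high GMP marker levels had Fdps at 5.76 to 7.71. LSK-Dot K1359, with LSK markers at 9.85, above every control, and GMP, late neutrophil and monocyte markers at 8.11, 5.89 and 4.68, below every control, had the lowest Fdps of its group at 5.65, still above the highest control at 5.197. The part of the marker shift in the LSK difference was not tested. Without K1272 the LSK difference was 1.93, and without the 3 arrays of lowest correlation the GMP effect minus the LSK effect was -4.48. The second Fdps probe set, 1438150_at, lay between 2.56 and 3.896 on all arrays, with a difference of -0.43 ± 0.26 in GMP and 0.09 ± 0.22 in LSK.

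**Figure D1:**
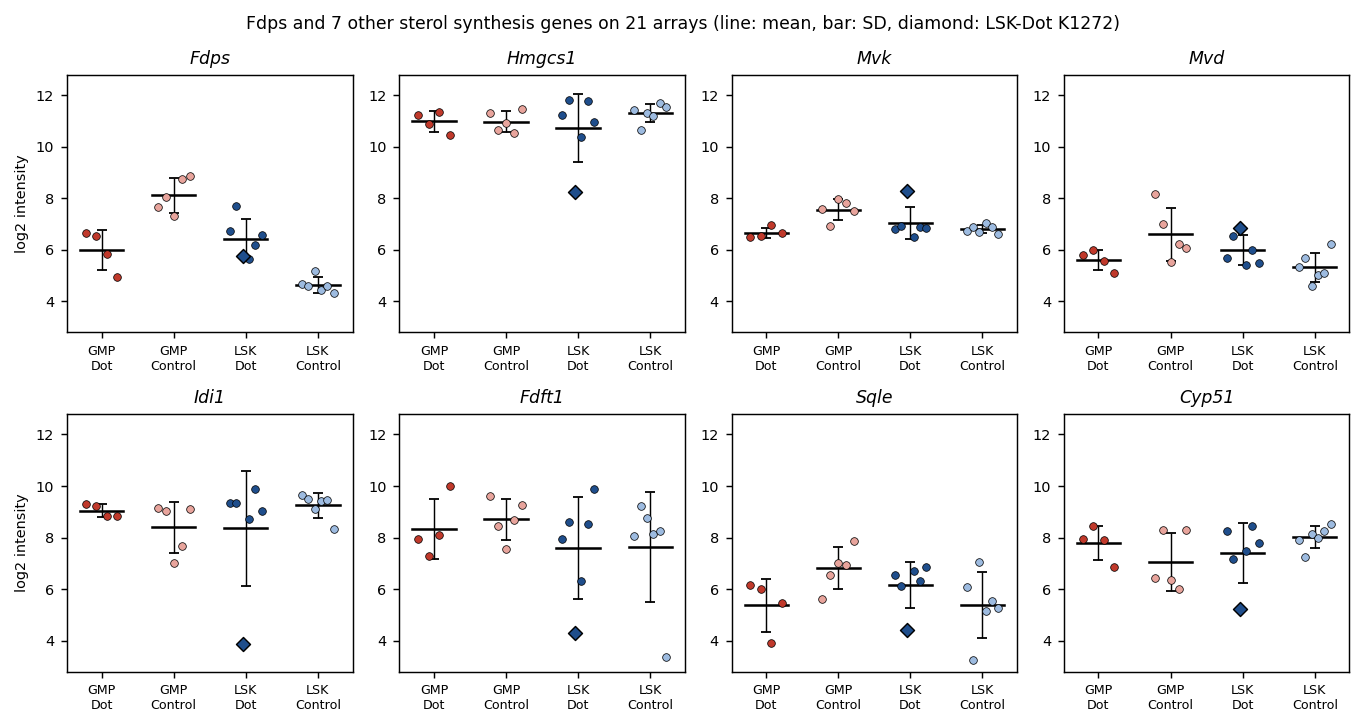
Log2 intensity (vertical axes) of the 8 genes by group, with 1 point per array, the mean as a line, the SD as a bar and LSK-Dot K1272 as a diamond. Fdps separates each deleted group from its control, while the deleted and control groups of the other 7 genes overlap. K1272 is the lowest LSK-Dot array for Idi1, Sqle, Hmgcs1, Cyp51 and Fdft1, and the highest for Mvk.

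No pathway neighbour passed the test for deletion in either cell type. In GMP, 0 of 7 neighbours were called at an adjusted p under 0.05, where 0.143% of all genes were, and their adjusted p lay between 0.211 and 0.991. In LSK 0 of 7 were called, as were 0% of all genes (1021 genes, 0 of them neighbours, had an unadjusted p under 0.05), and the neighbours' adjusted p lay between 0.985 and 0.997. For the GMP effect minus the LSK effect 0 of 7 were called, against 0.033% of all genes, with adjusted p from 0.263 to 0.899. At an unadjusted p under 0.05 there were 3 of 7 neighbours in GMP, where 2537 of all 18194 genes had such a p. For the difference of effects there were also 3, where 2473 of all genes had such a p. They were Mvd, Mvk and Sqle in both. No neighbour had groups without overlap by its main probe set in GMP, where 4.78% of all genes had, or in LSK, where 0.33% had.

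In sign, 3 of 7 neighbours were lower in GMP and higher in LSK like Fdps, 3 were higher in GMP and lower in LSK, and 1 was lower in both. This tally rests in part on values near 0 and on LSK-Dot K1272. Without that array Mvk was lower in both cell types, Idi1 was higher in both and Fdft1 had the signs of Fdps, so that 3 had these signs and 2, Hmgcs1 and Cyp51, the opposite ones. Of all genes 44.4% had the signs of Fdps, against 42.9% of the neighbours. The neighbours' median log2 fold change was -0.38 in GMP, where the median of all genes was -0.20, and -0.03 in LSK, where it was 0.06. For the difference of effects these medians were -0.34 for the neighbours and -0.26 for all genes. The 7 neighbours all had a mean log2 of at least 5. Among the 10824 such genes the medians were -0.07 in GMP, 0.01 in LSK and -0.03 for the difference. The shares of all genes by sign, here and below, also cover dimmer genes. Single arrays moved the neighbours' medians widely. With 1 array left out, the GMP median ran from -0.82 without GMP-Dot K1421 to -0.03 without GMP-Dot K1272, and the LSK median from -0.51 without LSK-Control K1553 to 0.24 without LSK-Control K1602. The median difference of effects ran from -0.898 without GMP-Dot K1421 to 0.51 without LSK-Control K1553, and it was 0.11 without LSK-Dot K1422. A missed threshold does not show that a gene kept its level, and the intervals below give the sizes that remain possible.

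**Figure D2:**
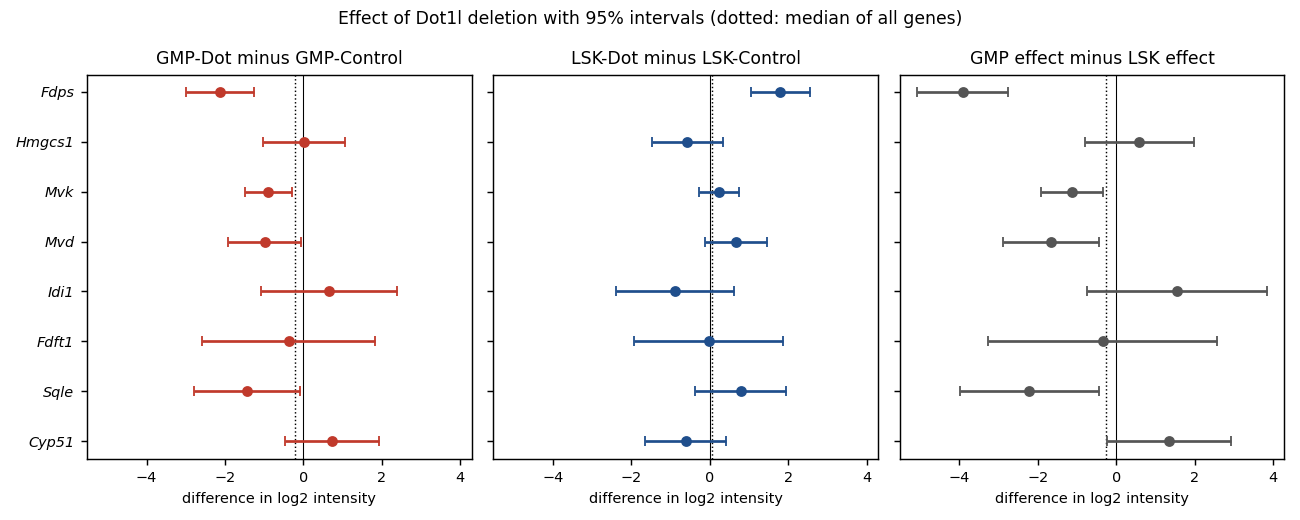
Difference in log2 intensity (horizontal axes) for each of the 8 genes, GMP-Dot minus GMP-Control, LSK-Dot minus LSK-Control, and the first minus the second, with 95% intervals and the median of all genes dotted. In the left panel the intervals of Mvk, Mvd and Sqle lie below 0, and in the middle panel the intervals of all 7 neighbours include 0.

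Sqle, the squalene epoxidase gene, had the largest difference of effects among the neighbours. Its levels were 6.15, 5.99, 3.89 and 5.47 in GMP-Dot and 5.64, 6.56, 7.02, 6.95 and 7.87 in GMP-Control, with only GMP-Control K1601 inside the GMP-Dot range. LSK-Dot had 4.42, 6.45 and 6.88 as lowest, median and highest, and LSK-Control 3.24, 5.39 and 7.07, so these groups overlapped widely. The log2 fold change was -1.43 ± 0.65 (SE) in GMP, with a limma adjusted p of 0.338 and a 95% interval from -2.78 to -0.08, and it was -0.94 without GMP-Dot K1359. In LSK it was 0.78 ± 0.56, with an interval from -0.38 to 1.94, and it was 1.13 without LSK-Dot K1272 and 0.35 without LSK-Control K1602. The GMP effect minus the LSK effect was -2.21 ± 0.85, with an adjusted p of 0.316, and -2.56 without K1272.

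Mvk and Mvd, the kinase and decarboxylase of mevalonate, showed smaller differences of the same signs. Mvk had 6.51, 6.55, 6.95 and 6.66 in GMP-Dot and 7.58, 6.91, 7.98, 7.83 and 7.50 in GMP-Control, where 1 array of each group overlapped. Its log2 fold change in GMP was -0.89 ± 0.29, with an adjusted p of 0.211 and a 95% interval from -1.49 to -0.30. Without LSK-Dot K1272, which enters only the shared spread here, the adjusted p was 0.0237. In that fit 390 of all 18194 genes were called in GMP, against 26 in the main fit. In LSK its levels were 6.52, 6.86 and 8.27 in LSK-Dot and 6.61, 6.81 and 7.06 in LSK-Control, a difference of 0.23 ± 0.25 that was -0.01 without K1272, the array at 8.27. The GMP effect minus the LSK effect of Mvk was -1.12 ± 0.38, with an adjusted p of 0.263, and it was -0.88 without K1272.

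Mvd had 5.79, 6.01, 5.55 and 5.11 in GMP-Dot and 8.17, 7.01, 5.53, 6.24 and 6.09 in GMP-Control, a difference of -0.99 ± 0.44 with an adjusted p of 0.334. It was -0.599 without GMP-Control K1601, the array at 8.17. LSK-Dot had 5.40, 5.85 and 6.84 as lowest, median and highest, and LSK-Control 4.60, 5.22 and 6.21, a difference of 0.67 ± 0.38 with a 95% interval from -0.12 to 1.46. The groups overlapped in both cell types, and the difference of effects was -1.66 ± 0.58 with an adjusted p of 0.286.

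Hmgcs1, Idi1 and Cyp51 did not share the signs of Fdps. Hmgcs1, which makes HMG-CoA, had 11.22, 10.90, 11.36 and 10.46 in GMP-Dot and 11.29, 10.64, 10.93, 10.53 and 11.46 in GMP-Control, a difference of 0.01 ± 0.51 with a 95% interval from -1.04 to 1.07. In LSK-Dot it had 8.25, 11.09 and 11.81 as lowest, median and highest, and in LSK-Control 10.66, 11.37 and 11.68, a difference of -0.57 ± 0.43 that was -0.07 without K1272, the array at 8.25. Within each cell type the groups overlapped.

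Idi1, the isomerase that supplies Fdps with its substrates, had 9.29, 9.22, 8.84 and 8.86 in GMP-Dot and 9.15, 9.01, 7.01, 7.68 and 9.12 in GMP-Control. Its difference in GMP was 0.66 ± 0.83, with an adjusted p of 0.687 and a 95% interval from -1.08 to 2.39, and it was 0.31 without GMP-Control K1603. The LSK-Dot levels were 3.86, 9.18 and 9.87, and the LSK-Control levels 8.33, 9.44 and 9.65, a difference of -0.89 ± 0.72 that was 0.01 without K1272. On K1272 alone Idi1 fell outside the range of every other array.

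Cyp51, which removes a methyl group from lanosterol, had 7.96, 8.46, 7.91 and 6.87 in GMP-Dot and 6.42, 8.28, 6.37, 5.99 and 8.29 in GMP-Control, a difference of 0.73 ± 0.58 with an adjusted p of 0.528 that was 0.46 without GMP-Control K1604. GMP-Control arrays fell into a high pair and 3 low arrays. In LSK-Dot it had 5.23, 7.63 and 8.46 as lowest, median and highest, and in LSK-Control 7.26, 8.06 and 8.51, a difference of -0.61 ± 0.50 that was -0.18 without K1272.

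Fdft1, which takes the product of Fdps into sterols, had 7.96, 7.29, 8.10 and 10.01 in GMP-Dot and 9.62, 8.44, 7.57, 8.67 and 9.27 in GMP-Control, a difference of -0.38 ± 1.06 that ran from -0.93 without GMP-Dot K1421, the array at 10.01, to -0.03 without GMP-Dot K1272. Its LSK-Dot levels were 4.29, 8.24 and 9.87, and its LSK-Control levels 3.35, 8.19 and 9.23, a difference of -0.03 ± 0.91 that was 0.63 without LSK-Dot K1272 and -0.89 without LSK-Control K1553, the array at 3.35. The intervals of this probe set, from -2.59 to 1.84 in GMP and from -1.94 to 1.87 in LSK, are wide. The GMP effect minus the LSK effect was -0.34 ± 1.399 for Fdft1, 0.58 ± 0.67 for Hmgcs1, 1.55 ± 1.10 for Idi1 and 1.34 ± 0.76 for Cyp51, with adjusted p of 0.899, 0.626, 0.469 and 0.403. Without LSK-Dot K1272 it was -1.002 for Fdft1, 0.0884 for Hmgcs1, 0.65 for Idi1 and 0.91 for Cyp51, and without LSK-Control K1553 it was 0.51 for Fdft1.

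The other probe sets placed the genes differently in part. Of 12 other probe sets of the neighbours, 6 had the signs of Fdps, 1 the opposite signs and 5 were higher in both cell types. Counting all 19, 9 had the signs of Fdps, or 47.4%, against 40.7% of the 34958 probe sets with 1 gene symbol. Both probe sets of Mvd, both of Mvk, 3 of 4 of Fdft1 and the only one of Sqle had these signs, against 0 of 5 of Hmgcs1, 0 of 2 of Idi1 and 1 of 3 of Cyp51. Fitted over all probe sets, 0 of these 12 were called in GMP, where 0.106% of probe sets were, and 0 in LSK, where 0.00572% were.

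Groups did not overlap for 2 of the 12 in GMP, where 4.71% of all probe sets had none, and for 1 in LSK, where 0.292% had none. These were Fdft1 1448130_at, with a difference of -1.10 ± 0.36 in GMP and an adjusted p of 0.212, Idi1 1451122_at, with 1.11 ± 0.37 in GMP and an adjusted p of 0.219, and Mvk 1418052_at, with 0.83 ± 0.41 in LSK and an adjusted p of 0.901. They were singled out after their values were seen. Idi1 1451122_at ranged from 8.06 to 8.96 in GMP-Dot and from 6.76 to 8.01 in GMP-Control. Mvk 1418052_at ranged from 6.50 to 9.43 in LSK-Dot and from 6.14 to 6.31 in LSK-Control. Its means there were 7.08 and 6.25 and its medians 6.61 and 6.26, so the array at 9.43 raised the LSK-Dot mean.

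**Figure D3:**
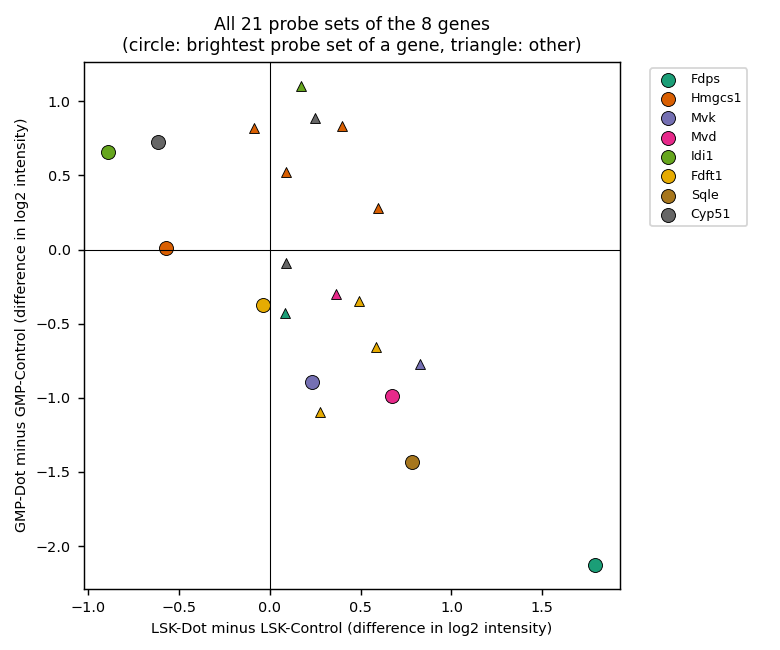
Difference in log2 intensity after deletion in LSK (horizontal axis, LSK-Dot minus LSK-Control) and in GMP (vertical axis, GMP-Dot minus GMP-Control) for all 21 probe sets of the 8 genes, with a circle for the probe set that stands for a gene and a triangle for the others. Probe sets of Mvd, Mvk and Sqle lie at the lower right with Fdps, and those of Hmgcs1 and Idi1 lie above or at 0 in GMP.

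Between the control groups, Mvd was the 1 neighbour of 7 that was called, where 12% of all genes were. It averaged 6.61 ± 1.02 in GMP-Control and 5.32 ± 0.57 in LSK-Control (SD, n = 5 and 6), a log2 fold change of 1.28 ± 0.40 (SE) with a limma adjusted p of 0.0426. The call was lost without any 1 of LSK-Control K1601, K1603, K1604 and K1581, of GMP-Control K1601, K1602 and K1604, of LSK-Dot K1091 and K1421, and without GMP-Dot K1190, with values from 0.89 to 1.37 in these fits. Mvk and Sqle missed the threshold, with 0.74 ± 0.26 and an adjusted p of 0.0631, and with 1.42 ± 0.58 and an adjusted p of 0.104. Hmgcs1, Idi1 and Cyp51 had negative values, -0.33 ± 0.46, -0.85 ± 0.75 and -0.94 ± 0.52. No neighbour separated the control groups by its main probe set, where 14.7% of all genes did, and 4 of 12 other probe sets did, where 13.1% of all probe sets did. The neighbours' median was 0.74 and that of all genes 0.29, but without LSK-Control K1553 they were 0.23 and 0.298, with the neighbours below. Among the 10824 genes with a mean log2 of at least 5 the median over all arrays was 0.03.

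The deleted groups of both cell types overlapped for all 7 neighbours. Between GMP-Dot and LSK-Dot 0 of 7 were called, where 0.143% of all genes were, and 0 of 7 had groups without overlap, where 2.03% of all genes had. Adjusted p lay between 0.960 and 0.9997, and the neighbours' differences between -0.80 for Sqle and 0.74 for Fdft1. The comparisons share groups of arrays with each other and are not independent.

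Across the 21 arrays, Fdps was correlated with Sqle at a Pearson r of 0.58 and with Mvd at 0.56, ranks 519 and 654 of 18193 genes. For Mvk r was 0.45, for Fdft1 0.31, for Hmgcs1 0.02, for Idi1 -0.09 and for Cyp51 -0.22. The genes most like Fdps were Ssr2 and Plod3 at 0.84, Syngr2 at 0.83 and Chchd4 and Cib1 at 0.82. Ssr2, a subunit gene of the translocon-associated complex, averaged 9.96 in GMP-Dot, 10.96 in GMP-Control, 9.64 in LSK-Dot and 8.52 in LSK-Control. These arrays share 4 groups, so the values describe group patterns and single arrays together.

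Deviations of arrays from their group means gave another order. Hmgcs1 deviated with Idi1 at r = 0.83 and with Cyp51 at 0.69, and Idi1 with Cyp51 at 0.72, over 21 arrays. Without LSK-Dot K1272 these were 0.32, 0.37 and 0.44 over 20 arrays. Other pairs deviated against each other. Mvk did so with Idi1 at -0.81, with Cyp51 at -0.76 and with Hmgcs1 at -0.59, and Mvd with Sqle at -0.56. Without K1272 these were -0.35, -0.55, 0.21 and -0.49. Fdps deviated with Hmgcs1 at 0.45, and at 0.40 without K1272, with Sqle at 0.38 and 0.29, and with Mvd at 0.02 and 0.13.

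Other sterol genes were read in lists. Of 9 measured enzymes of the same pathway 0 were called in any of the 5 comparisons. Of all genes 0.143% were called in GMP, 0% in LSK and 0.033% for the difference of effects. Between the controls 12% were called, and between the deleted groups 0.143%. In GMP 4 of the 9 enzymes were higher and 5 lower, with a median of 0.00. In LSK 5 were higher and 4 lower, with a median of 0.02. Of all genes 34.3% were higher in GMP and 58.4% in LSK. Sc5d, a sterol desaturase, had 2.17 ± 0.75 in GMP with an adjusted p of 0.238, and Tm7sf2, a sterol reductase, had 1.10 ± 0.50 in LSK with an adjusted p of 0.878. Msmo1 and Lss, which follow squalene epoxidation, had differences of effects of 1.12 ± 0.80 and 1.09 ± 0.84, with adjusted p of 0.470 and 0.498.

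On the other branch from farnesyl diphosphate, 0 of 11 measured genes were called after deletion in either cell type. Of all genes 0.143% were called in GMP and 0% in LSK. The median of the 11 was -0.35 in GMP and 0.12 in LSK. Dhdds, which encodes a subunit of the dolichol-synthesising transferase, had 0.75 ± 0.28 in LSK and a difference of effects of -1.21 ± 0.42, with adjusted p of 0.679 and 0.286. It was higher in GMP-Control than in LSK-Control by 1.52 ± 0.29, with an adjusted p of 0.00293. Rce1, a protease that trims prenylated proteins, Pggt1b, a subunit of a prenyl transferase, and Coq2, of ubiquinone synthesis, had differences of effects of -1.47 ± 0.52, 1.80 ± 0.80 and -0.78 ± 0.54, with adjusted p of 0.289, 0.346 and 0.462.

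Of 7 genes of SREBP control 0 were called after deletion, where 0.143% of all genes were in GMP and 0% in LSK. In GMP 6 of the 7 were higher, where 34.3% of all genes were. In LSK 3 were higher and 4 lower, where 58.4% of all genes were higher. Srebf2 averaged 6.49 ± 1.31 in GMP-Dot, 6.13 ± 0.73 in GMP-Control, 8.02 ± 0.59 in LSK-Dot and 8.98 ± 0.54 in LSK-Control (SD, n = 4, 5, 6 and 6). It was thus lower in GMP-Control than in LSK-Control by a log2 fold change of -2.85 ± 0.45, with an adjusted p of 0.000684. Mbtps2, a protease that cleaves SREBP, was also lower, with -1.97 ± 0.46 and an adjusted p of 0.00991. Of the 7 neighbours of Fdps, 4 were higher and 3 lower in GMP-Control, and a link to the level of Srebf2 was not tested. Insig1 and Insig2, which hold SREBP in the endoplasmic reticulum, had differences of effects of 2.02 ± 1.04 and 0.44 ± 0.59, with adjusted p of 0.384 and 0.678.

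Npc2, the lysosomal cholesterol-binding protein gene, was the 1 listed gene called after deletion, in GMP, where 0.143% of all genes were called. It averaged 11.60 ± 0.10 in GMP-Dot and 12.61 ± 0.14 in GMP-Control, ranges of 11.46 to 11.68 and 12.41 to 12.78, a log2 fold change of -1.01 ± 0.20 with an adjusted p of 0.0465. In LSK it was 0.14 ± 0.17, and the difference of effects, -1.15 ± 0.26, had an adjusted p of 0.143. The GMP call was lost in 23 of 35 alternative settings, with values from -1.32 to -0.72 in the settings other than those leaving out 1 array. Npc2 was higher in GMP-Control than in LSK-Control by 1.11 ± 0.18, and Stard4, a sterol transfer protein gene, was lower by a log2 fold change of -2.13 ± 0.43, with adjusted p of 0.000684 and 0.00464.

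Osbp and Tmem97, also of sterol transport, had differences of effects of 1.44 ± 0.72 and -1.37 ± 0.86, with adjusted p of 0.378 and 0.430. Among 4 measured efflux genes 0 were called after deletion, where 0.143% of all genes were in GMP and 0% in LSK. The exporter gene Abcg1 was lower in GMP-Control than in LSK-Control, at -2.36 ± 0.52 with an adjusted p of 0.00754. Apoe, Abca1 and Nr1h3 had differences of effects of -0.75 ± 0.49, 0.66 ± 0.86 and 0.43 ± 0.69, with adjusted p of 0.441, 0.672 and 0.732.

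Fatty acid genes under SREBP control were read beside the sterol genes. After deletion 0 of 10 were called, where 0.143% of all genes were in GMP and 0% in LSK. In GMP 8 were higher, where 34.3% of all genes were, with a median of 0.60. In LSK 4 were higher and 6 lower, with a median of -0.15, where 58.4% of all genes were higher. The direction of the list as a whole was not tested. Elovl6, a fatty acid elongase, had 1.70 ± 0.39 in GMP with an adjusted p of 0.0936 and a difference of effects of 1.92 ± 0.51 with an adjusted p of 0.182. Fads1, Me1 and Scd2 had differences of effects of 1.96 ± 1.26, 0.77 ± 0.50 and 1.36 ± 0.95, with adjusted p of 0.436, 0.438 and 0.465. Elovl6, Fads1 and Fads2 were lower in GMP-Control than in LSK-Control, at -1.53 ± 0.35, -2.88 ± 0.86 and -1.79 ± 0.28, with adjusted p of 0.00955, 0.0364 and 0.00053. Fads2, a desaturase, was also lower in GMP-Dot than in LSK-Dot, at -1.79 ± 0.295 with an adjusted p of 0.0219. The Fads2 call between the deleted groups was lost in 4 of 36 alternative settings, among them without LSK-Dot K1422 at an adjusted p of 0.0582. The control calls of Elovl6, Abcg1 and Mbtps2 were each lost in 2, with values weakening to -0.45, -1.10 and -1.29, and those of Stard4, Dhdds and Npc2 in 1 each. The Fads1 call was lost in 12 of 36 alternative settings, and its value was -0.48 once the arrays' upper quartiles entered the fit.

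**Figure D4:**
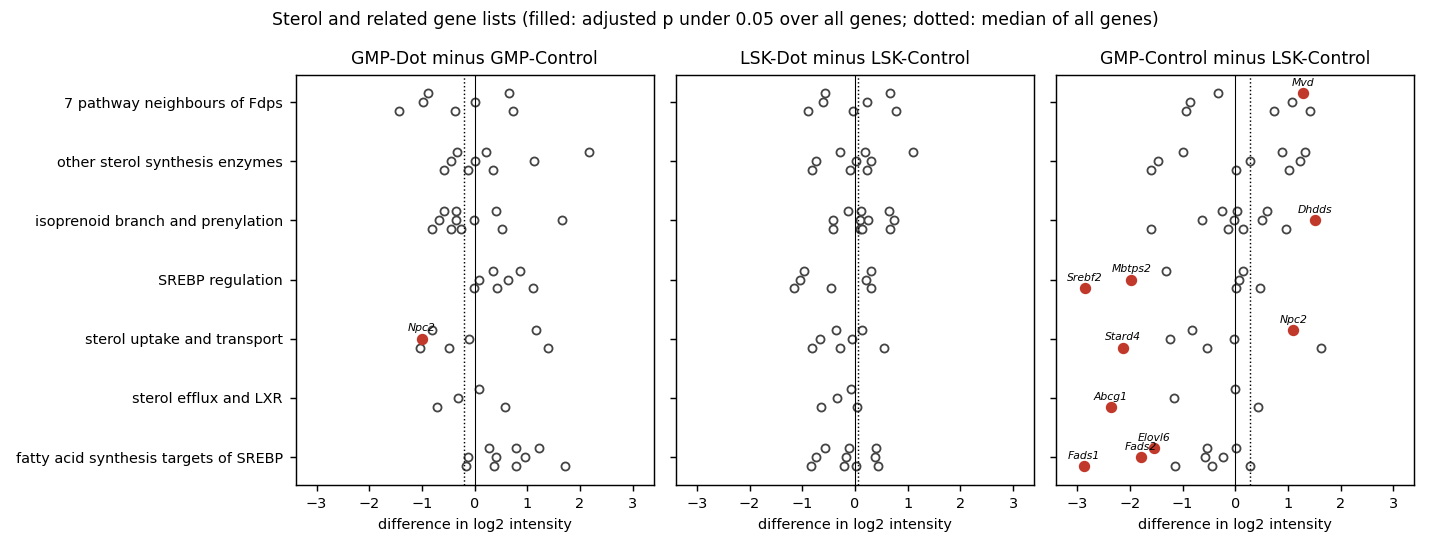
Difference in log2 intensity (horizontal axes) for each measured gene of 7 lists (rows), GMP-Dot minus GMP-Control, LSK-Dot minus LSK-Control and GMP-Control minus LSK-Control, with called genes filled and named and the median of all genes dotted. Npc2 in GMP is the 1 gene called after deletion, and Mvd, Dhdds and Npc2 are the called genes that were higher in GMP-Control.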

How the data were processed

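The authors deposited 1 table of linear intensity values, made by RMA (version not named) per the submitters' processing notes. Per the labels, biotin-labelled cRNA from sorted cells was hybridised to the arrays. That the scale is linear was inferred from the range of values. The log2 of each intensity was taken, with no pseudocount or further normalization. Groups came from the titles.

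The platform annotation gave a single gene symbol to 34958 probe sets, several to 932 and none to 9211, and Entrez identifiers of 34754 matched a GRCm38.p6 gene table, which changed 0 symbols. limma 3.58.1 in R 4.3.3 fitted 4 group means over all 21 arrays, with Benjamini-Hochberg adjustment over all 18194 genes and a threshold of 0.05. The fit was tested on simulated data.

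The 8 genes, the lists and the tests were chosen with earlier results of these data known. Besides the 8 genes and Dot1l, the text names up to 4 genes a list with the smallest p for the difference of effects, list genes called anywhere, and the 5 genes most correlated with Fdps. Some listed genes are not reported here. Alternatives were other normalizations, filters, probe set rules, variance models, array weights, blocking on the K number of the titles, and arrays left out.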

Additional observations from a re-analysis of the deposited data

Results flagged for a closer look

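Single arrays lay far from their group in 4 of 32 groups of values of the 8 genes, by the gap to the nearest array over the group's range. Chance gives about 1 in 20 such groups. In LSK-Dot, array K1272 had Idi1 at 3.86, where the others had 8.72 to 9.87, Mvk at 8.27, where the others had 6.52 to 6.94, and Sqle at 4.42, where the others had 6.14 to 6.88. The same array had the lowest correlation with its group. In LSK-Control, array K1553 had Fdft1 at 3.35, where the others had 8.07 to 9.23. LSK effects without these arrays stand beside each gene above.

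Every GMP-Dot array had Fdps below every GMP-Control array, and every LSK-Dot array above every LSK-Control array, with a difference of effects of -3.92. The difference was not tested, since Fdps was chosen for it.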

How the results depend on the processing

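Fdps kept both directions in every alternative run. Its groups do not overlap, so leaving out or averaging arrays could not turn its signs, and this supports nothing. The mean of its probe sets gave -1.28 in GMP, 0.94 in LSK and -2.21 for the difference of effects. No neighbour was called in LSK, or between GMP-Dot and LSK-Dot, in any alternative. Of all genes 0 to 663 and 0 to 1362 were called there. In GMP 1 neighbour was called with gene-by-gene array weights and 1 with REML array weights, where 7152 and 3778 of all 18194 genes were. With 1 array left out 0 to 1 were called, the 1 being Mvk without LSK-Dot K1272, where 390 of all genes were. For the difference of effects 2 were called with gene-by-gene weights and 1 with REML weights, where 4236 and 2416 of all genes were. Between the controls the neighbours called numbered 0 after centring on array medians, where 2195 of all genes were called. They numbered 0 without _s_at, _x_at and _a_at probe sets, where 1921 of 16593 genes were called. With the K number as a random replicate block they numbered 0, where 1337 genes were called. They numbered 2 with the mean of all probe sets or 3 arrays left out, where 2441 and 2885 genes were called. With gene-by-gene and REML weights they also numbered 2, where 6351 and 7054 genes were called. With 1 array left out they numbered 0 to 2, where 1111 to 5531 genes were called. The REML weights stopped before convergence, and they and the removal of the 3 arrays of lowest correlation were chosen after seeing the data. Of 9 pairs of an LSK and a GMP array with the same K number, 1 deviated together with a correlation over 0.1. This cannot decide whether a pair came from 1 animal, since the 2 arrays hold different cell types.

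Signs turned in effects near 0 and also in larger ones, such as those of Cyp51 and Idi1 between the controls and the differences of Fads1, Elovl6 and Msmo1, and the cause was not tested. In LSK the mean of probe sets gave Hmgcs1 0.0855 and Fdft1 0.33, leaving out _s_at, _x_at and _a_at probe sets gave Idi1 0.17 and Fdft1 0.58, gene-by-gene weights gave Hmgcs1 0.0269, Idi1 0.0015 and Fdft1 0.49, and REML weights gave Hmgcs1 0.0299 and Fdft1 0.45. The upper quartile as a covariate gave Fdft1 0.066, and 3 arrays left out gave Idi1 0.0095, Mvk -0.0138 and Fdft1 0.63. In GMP, Hmgcs1 was -0.0092 with the random block, -0.38 with the covariate, -0.0117 with GMP-Dot K1190 and K1272 averaged and -0.12 with REML weights, and Idi1 was -0.20 with the covariate. Between the controls the covariate gave Hmgcs1 0.44, Idi1 0.81 and Cyp51 0.22. Differences of effects turned to 1.17 for Fdft1 with the K number as a fixed block, -0.15 for Hmgcs1 and 0.0089 for Coq2 with REML weights, -0.16 for Elovl6 with the mean of probe sets, -0.37 for Msmo1 and -0.57 for Me1 without the shared probe sets, -0.19 for Abcg1 with the covariate and -0.0539 for Fads1 with 3 arrays left out.

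With 1 array left out, LSK values ranged from -0.89 to 0.63 for Fdft1, from -1.19 to 0.0095 for Idi1 and from -0.0138 to 0.34 for Mvk, and Hmgcs1 in GMP from -0.11 to 0.19. Differences of effects ranged from -1.002 to 0.51 for Fdft1, from -0.0604 to 0.96 for Insig2, from -0.024 to 0.66 for Nr1h3 and from -0.0789 to 0.62 for Abcg1. Genes called over all alternatives numbered 8 to 7152 in GMP (26 as reported), 0 to 663 in LSK (0), 0 to 4236 for the difference (6), 454 to 7054 between the controls (2180) and 0 to 1362 between the deleted groups (26), the highest of them with array weights.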
